A study of Mus musculus with 12 samples.

Results

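The genes described here are the 47 mouse genes whose symbols name them as parts of the proteasome, out of 55335 gene rows counted. They were chosen by symbol: Psma, Psmb, Psmc, Psmd, Psme, Psmf or Psmg followed by a number, pseudogenes left out. Symbols were joined by Ensembl ID from the authors' deposited tables, which hold 13301 rows for RNA-seq and 11369 for footprints. Genes absent from both, such as Psmd10, were therefore not taken. All 47 passed the filter on low counts in RNA-seq, in ribosome footprints and in the fit of both. By known role, 7 encode the alpha ring of the core particle, 4 its non-catalytic beta subunits, 3 the standard catalytic subunits, 3 the immunoproteasome catalytic subunits and 1 (Psmb11) the thymoproteasome catalytic subunit. A further 6 encode the ATPases of the regulatory particle, 3 the rest of its base and 8 its lid, while 2 encode chaperones that assemble the base, 4 chaperones that assemble the core and 5 activators or an inhibitor. The remaining gene, Psmc3ip, is taken by the symbol rule but encodes a cofactor of DNA recombination and no known proteasome part, so it is counted among the 47 and left out of summed levels.

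The proteasome degrades proteins tagged with ubiquitin. Its core particle is a barrel of stacked alpha and beta rings with the proteolytic sites inside, and the regulatory particle binds the tagged protein, removes the tag, unfolds the chain and feeds it into the barrel. In cells of the immune system the immunoproteasome subunits replace the standard catalytic subunits during assembly and alter which peptides are made for MHC class I molecules, and cortical epithelial cells of the thymus use a further variant, the thymoproteasome, known for its part in the selection of CD8+ T cells.

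Thymocytes, the developing T cells of the thymus, came from 6-week-old mice kept free of specific pathogens: 3 wild type (WT) and 3 knockout (KO) for miR-181a/b-1, a pair of clustered microRNA genes. Each genotype gave 3 RNA-seq libraries and 3 ribosome footprint libraries, 12 in all, and footprints are the mRNA fragments that ribosomes shield from nuclease. All cells were passed through a 70 µm strainer and put at once into a buffer holding cycloheximide at 0.1 mg/ml, which freezes ribosomes on mRNA, WT and KO alike. The labels give no strain, no sex, no cell sort and no way of making the knockout, and leave unsaid which of the libraries share a mouse, so p-values measure the spread between these libraries.

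The main mature products of the deleted pair are shown to identify the microRNA genes that the KO mice lack. Levels of these mature products in WT and KO were not examined here. They are written 5′ to 3′, from RefSeq on GRCm38.p6, both on the plus strand, miR-181a-5p at chr1:137966468-137966490 and miR-181b-5p at chr1:137966650-137966673. Capitals mark the seed, bases 2 to 8, which the pair shares.
mmu-miR-181a-5p: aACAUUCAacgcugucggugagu
mmu-miR-181b-5p: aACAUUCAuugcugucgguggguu
Whether proteasome transcripts hold matches to this seed was not analysed here.

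Reads in genes numbered 4479182 to 8180286 per RNA-seq library and 4069968 to 17859770 per footprint library, the fewest in KO replicate 3. The 47 genes took 0.224% to 0.261% of RNA-seq reads and 0.705% to 0.738% of footprint reads, with at least 11 and 41 reads per gene and library (both Psmb11). All 10 thymocyte markers were detected, with a summed footprint level of 22700 to 23700 CPM in WT and 22400 to 23300 CPM in KO, of which Rag1 was the largest part. Single markers moved beside the proteasome footprints: Cd4 (log2 fold change 0.57, edgeR FDR 0.00335, also called with the block) and Themis (0.23) rose, Rag1 (-0.30), Ptcra (-0.37) and Lck (-0.12) fell, and the other 5 were not called. In RNA-seq none of the 10 was called. The part of these shifts in the proteasome values was not tested. CPM is the usual scale for counts, a gene's reads relative to the TMM-scaled total of reads in genes. In the deposited counts, same-numbered WT and KO libraries deviate from their group means in opposite directions, with correlations across genes of -0.983 to -0.96 in RNA-seq and -0.989 to -0.985 in footprints, against 0.234 to 0.688 and 0.362 to 0.636 for other numbers. Genes are not independent replicates here. The SD of a group may therefore not measure how mice differ, and each count of calls is given also from a fit that has the replicate number as a block.

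In RNA-seq, proteasome transcripts stood at nearly the same level in the libraries labelled WT and KO. The 46 genes without Psmc3ip summed to 2445 ± 85.9 CPM in WT against 2393 ± 98.7 CPM in KO (SD, n = 3), a ratio of 0.979. The 1 gene called at an edgeR FDR under 0.05 was Psmg3, which encodes a chaperone that pairs with the product of Psmg4 to help build the alpha ring. It had 11.4, 12 and 12 CPM in WT replicates 1 to 3 and 8.48, 8.05 and 8.11 CPM in KO. All KO-labelled libraries lay below all WT-labelled ones, and its level fell by 0.52 on the log2 scale (SE 0.08, edgeR FDR 0.019). At 245 WT and 157 KO reads in all, that SE is smaller than counting error alone would give. With the block it was 0.22. The call ended with the block (FDR 0.454) and with each of the 6 libraries left out in turn (FDR 0.0671 to 0.0936), so that no omission kept it.

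The share of the 47 genes called in RNA-seq was 2.13%, against 6.91% of all 13652 genes tested. With the block 0 of the 47 were called, with 1 at an unadjusted p under 0.05, and 0.806% of all genes. Groups did not overlap for 4 of the 47 (8.51%), against 30.9% of all genes. The log2 fold changes (KO against WT) ran from -0.52 (Psmg3) to 0.21 (Psmc6), with a median of -0.03, 18 above 0 and 29 below. Their median size was 0.0755, against 0.14 over the 9756 genes whose log2 CPM averaged 3 or more. For 44 of the 47 the 95% interval lay inside a change of 1.5-fold in either direction, or for 39 with the block. The exceptions without the block were Psmg3, Psmb11, whose few reads left an interval of -0.63 to 0.73, and Psmd3.

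Psmd3, a lid subunit, was the second most changed in RNA-seq by size, with 105, 106 and 126 CPM in WT and 95.5, 95.4 and 76.8 CPM in KO. The groups did not overlap, but the change of -0.33 (SE 0.12) was not called (edgeR FDR 0.145), and in footprints the same gene had a log2 fold change of -0.04 (FDR 0.54). Another lid subunit, Psmd6, had -0.22 (FDR 0.131), also without overlap. In bulk RNA, fewer cells of a type and less RNA per cell cannot be told apart.

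**Figure D1:**
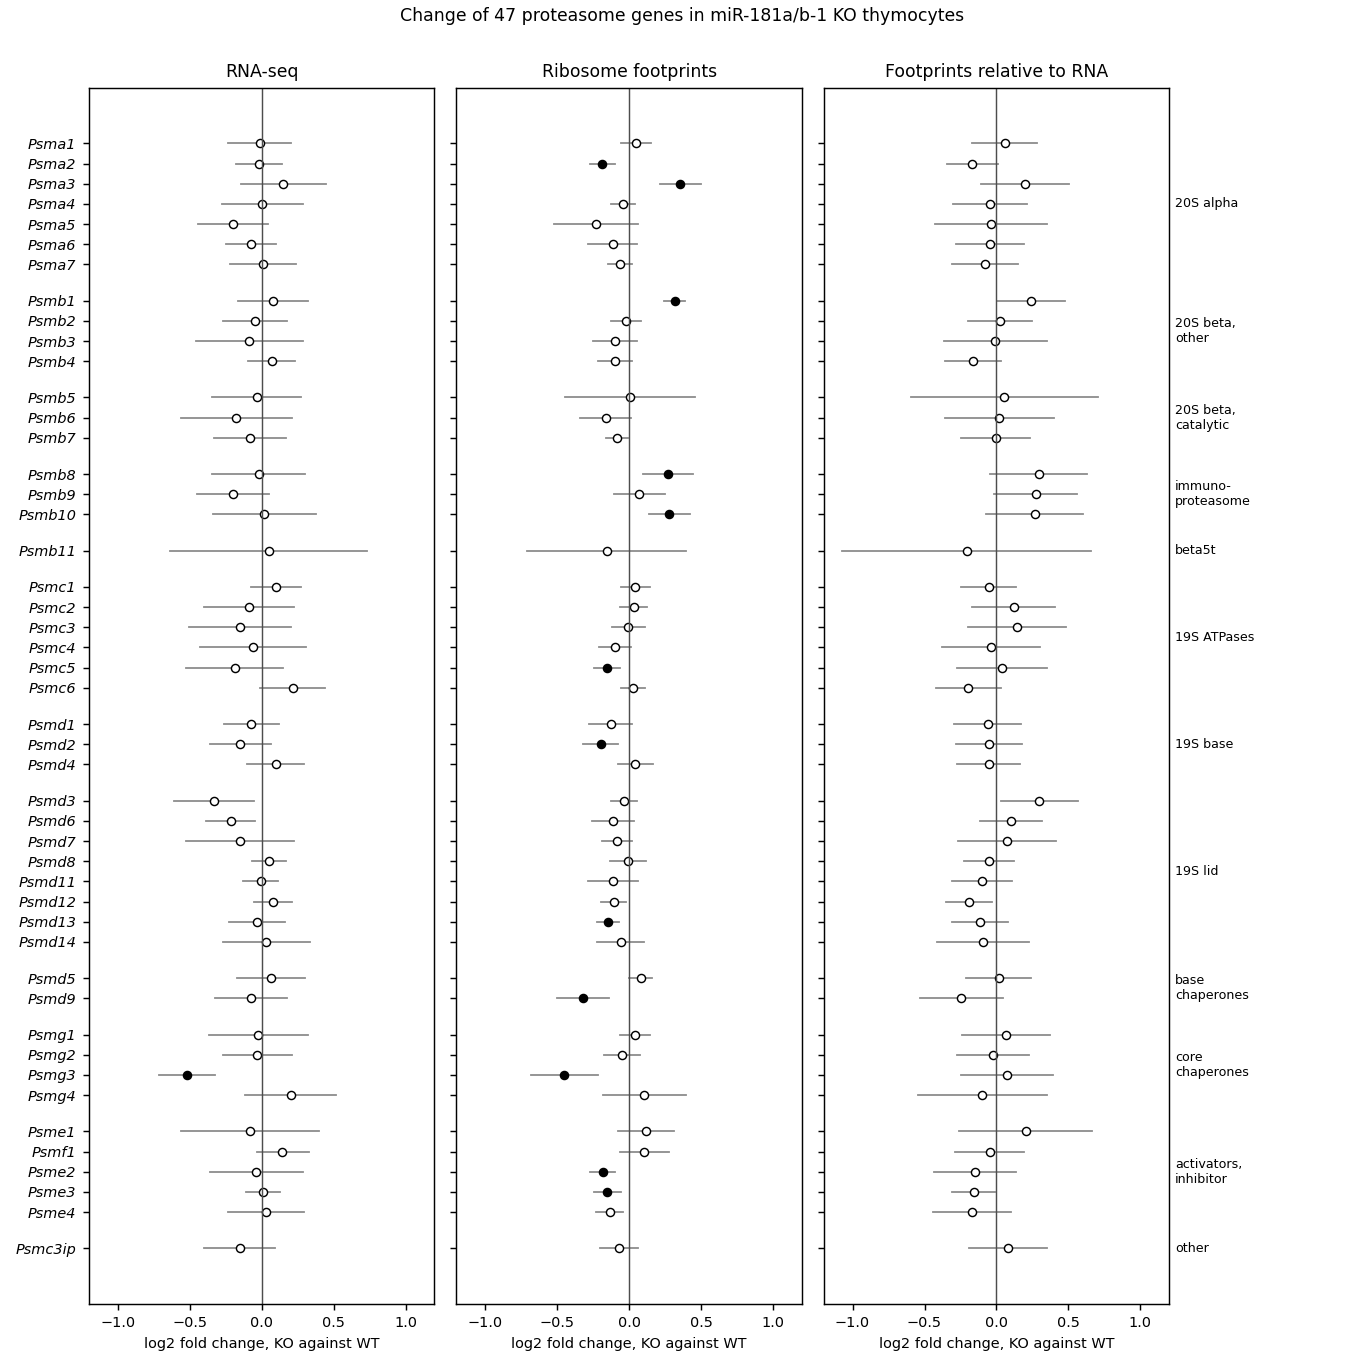
Log2 fold change (KO against WT) of each of the 47 genes in RNA-seq, in ribosome footprints and in footprints relative to RNA, ordered by role; points are edgeR estimates, bars 95% intervals, and filled points were called at an FDR under 0.05. There is 1 filled point in RNA-seq, 12 in footprints and 0 in the third panel, and the bars are shortest in footprints.

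In footprints 12 of the 47 genes were called by edgeR, in both directions and by small amounts. Psma3, Psmb1, Psmb10 and Psmb8 rose, by 1.21-fold to 1.28-fold. Psma2, Psmc5, Psmd13, Psmd2, Psmd9, Psme2, Psme3 and Psmg3 fell, by 0.15 (Psmd13, Psme3 and Psmc5) to 0.45 (Psmg3) on the log2 scale. The 4 genes that rose all encode subunits of the core particle, and the 8 that fell are spread over the alpha ring, the regulatory particle, chaperones and activators. The summed level of the 46 genes was 7290 ± 53.7 CPM in WT against 7154 ± 51.5 CPM in KO (SD, n = 3), a ratio of 0.981.

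The 12 are 25.5% of the 47, against 17.6% of all 13509 genes tested, and against 20.7% of the 8652 genes whose log2 CPM averaged 3 or more. By direction, 4 of the 47 rose (8.51%), against 9.25% of all genes, and 8 fell (17.0%), against 8.34%. With the block 0 of the 47 were called, against 3.02% of all genes, and 8 kept an unadjusted p under 0.05. The FDR of the 12 then ran from 0.074 (Psmb1) to 0.435 (Psme3). Groups did not overlap for 19 of the 47 (40.4%), 5 higher and 14 lower, against 38.1% of all genes. The share that rose and the share without overlap are near those of all genes, and the share that fell is above it, by a difference that was not tested. Their median log2 fold change was -0.06, with 16 above 0 and 31 below, and the median over all genes was -0.01. For 45 of the 47 the 95% interval lay inside 1.5-fold in either direction (44 with the block), Psmb11 and Psmg3 being the exceptions.

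In the alpha ring, which gates the entry to the core, 1 gene rose and 1 fell in footprints. Psma3 had 21.9, 20.8 and 20.1 footprint CPM in WT and 25.8, 27 and 28.2 CPM in KO. All KO libraries were above all WT libraries and the log2 fold change came to 0.36 (edgeR FDR 0.0104, SE 0.06). At 966 WT and 809 KO reads in all, that SE is smaller than counting error alone would give. With the block the SE was 0.13 and the FDR 0.186. The call was lost without KO replicate 2 (FDR 0.0574) and kept in the other 5 omissions. In RefSeq, Psma3 overlaps a lncRNA gene, and the strand setting of the counting is not given in the sources used here. Psma2 had 234, 222 and 230 CPM in WT and 197, 207 and 199 CPM in KO. Every KO library was lower, by -0.19 on the log2 scale (SE 0.04, FDR 0.02), a call kept in 1 of the 6 omissions, that of WT replicate 2 (FDR 0.0434 to 0.0953 over the 6). The other 5 alpha genes had footprint log2 fold changes from -0.23 (Psma5) to 0.05 (Psma1), none of them called.

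Psmb1, a non-catalytic beta subunit, showed the smallest spread beside its change. It had 179, 181 and 177 footprint CPM in WT and 224, 221 and 224 CPM in KO, from 914 to 3395 reads per library. The KO values lie in a narrow band well above the WT values, with a spread smaller than counting error alone would give at these read numbers. The log2 fold change was 0.32 (SE 0.03, edgeR FDR 0.0019), and the call was kept in each of the 6 omissions (0.30 to 0.32, FDR 0.0116 to 0.0157). With the block the change was again 0.32, with an SE of 0.08 and an FDR of 0.074. RNA-seq gave 77.6, 68.2 and 81.8 CPM in WT and 78.6, 89.7 and 73.1 CPM in KO, overlapping ranges with a log2 fold change of 0.08 (FDR 0.699). The change of Psmb1 footprints beyond RNA was 0.24 (SE 0.11) and was not called (FDR 0.353). Psmb2, Psmb3 and Psmb4, the other non-catalytic beta subunits, had footprint log2 fold changes of -0.02, -0.10 and -0.10, none called.

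**Figure D2:**
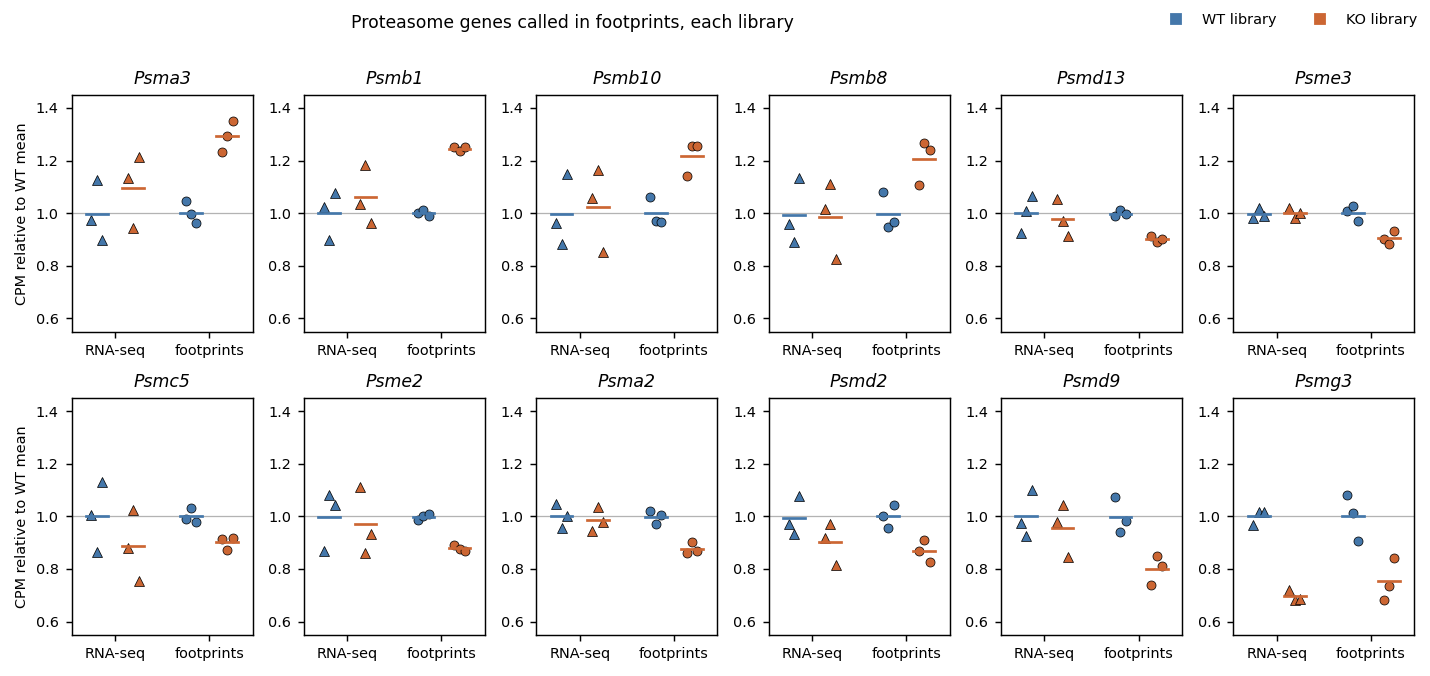
Level of each of the 12 genes called in footprints in every library, as CPM divided by the WT mean of the same assay (vertical axis, no unit); triangles are RNA-seq libraries, circles footprint libraries, blue WT, orange KO, and lines group means. In footprints the KO circles lie wholly above WT for Psma3, Psmb1, Psmb10 and Psmb8 and wholly below for the other 8, while RNA-seq groups overlap for all but Psmg3.

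The catalytic sites of the core each have a standard and an immunoproteasome form: beta1 (Psmb6 and Psmb9), beta2 (Psmb7 and Psmb10) and beta5 (Psmb5 and Psmb8). Footprints on all 3 immunoproteasome genes were higher in KO by estimate, 2 of them called, and none of the 3 standard genes was called. Of all genes 17.6% were called, and in a set of 3 such a share rests on single genes. With the block 0 of the 3 were called (edgeR FDR 0.198 for Psmb8 and 0.163 for Psmb10). The immunoproteasome genes summed to 612.7, 546.6 and 546.6 CPM in WT and 624.5, 704.1 and 700.8 CPM in KO, a ratio of 1.19. These groups do not overlap, as was so for 38.1% of all single genes. Their RNA-seq sums overlapped, with 187 ± 22 CPM in WT against 182 ± 24.7 CPM in KO (SD, n = 3).

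Psmb8, the beta5i subunit, had 442, 388 and 395 footprint CPM in WT and 453, 518 and 508 CPM in KO. The lowest KO library, replicate 1, stood just above the highest WT library, also replicate 1. The log2 fold change was 0.27 (edgeR FDR 0.0485, SE 0.07), kept in 2 of 6 omissions, those of WT replicate 1 and KO replicate 1 (FDR 0.0372 to 0.148 over the 6). Psmb10, the beta2i subunit, had 90.7, 82.7 and 82.4 CPM in WT and 97.3, 107 and 107 CPM in KO. Again replicate 1 was the highest in WT and the lowest in KO, and the groups did not overlap. The log2 fold change was 0.28 (SE 0.06, FDR 0.0236), kept in the same 2 omissions (FDR 0.0258 to 0.0958 over the 6). Psmb9, the beta1i subunit, had 79.9, 75.7 and 69 CPM in WT and 74.1, 78.6 and 85.9 CPM in KO. Those ranges overlap, and the log2 fold change of 0.07 (SE 0.07, FDR 0.556) was not called.

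In RNA-seq the same genes gave no call. Psmb8 had 122, 113 and 144 CPM in WT and 129, 141 and 105 CPM in KO (log2 fold change -0.02, edgeR FDR 0.943). Psmb9 had -0.20 (FDR 0.312) and Psmb10 0.02 (FDR 0.957), and in all 3 the groups overlapped. The change of footprints beyond RNA was 0.29 for Psmb8 (SE 0.16, FDR 0.427), 0.27 for Psmb9 (SE 0.13, FDR 0.383) and 0.27 for Psmb10 (SE 0.16, FDR 0.481), none called. The 3 values are alike in size, and the largest of their 95% intervals reached 0.63 (Psmb8).

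Among the standard subunits, Psmb6 (beta1) had 172, 154 and 151 footprint CPM in WT and 130, 147 and 149 CPM in KO, every KO library being lower. Its log2 fold change was -0.16 (SE 0.07, edgeR FDR 0.182), not called. Psmb7 (beta2) had 152, 156 and 154 CPM in WT and 147, 143 and 145 CPM in KO, again without overlap, at -0.09 (SE 0.03, FDR 0.113), not called. Psmb5 (beta5) had 36.8, 37.2 and 25.4 CPM in WT and 30.9, 30.5 and 43.7 CPM in KO. Here replicate 3 was lowest in WT and highest in KO, the groups overlapped, and the 95% interval of -0.45 to 0.46 left no direction. In RNA-seq, Psmb5, Psmb6 and Psmb7 had log2 fold changes of -0.04, -0.18 and -0.08 (FDR 0.9, 0.557 and 0.681).

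A share within a library needs no scaling between libraries. Of the footprint reads on each catalytic pair, the immunoproteasome gene took the following part, in plain reads, since no coding lengths were used. Psmb10 took 37.3%, 34.6% and 34.9% in WT and 39.8%, 42.8% and 42.5% in KO of the reads on Psmb10 and Psmb7. The KO libraries were all higher, by 6.07 percentage points in the mean (exact two-sided permutation p = 0.1, or 0.3 adjusted over the 6 comparisons). Psmb9 took 31.7%, 33% and 31.4% in WT and 36.2%, 34.8% and 36.5% in KO of the reads on Psmb9 and Psmb6. Again all KO libraries were higher, by 3.81 points (exact permutation p = 0.1, adjusted 0.3), and 0.1 is the smallest p that 3 against 3 libraries allow. Psmb8 took 92.5% ± 1.36 in WT and 93.4% ± 1.2 in KO (SD, n = 3) of the reads on Psmb8 and Psmb5, overlapping groups (exact permutation p = 0.5, adjusted 0.9). The 95% exact binomial interval of a single footprint library was at its widest 33.4% to 39.6% (Psmb9, KO replicate 3), which covers counting error only.

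In RNA-seq the shares overlapped between genotypes at all 3 sites. Psmb8 took 94.6% ± 0.287 in WT and 94.6% ± 0.329 in KO, Psmb9 took 48.6% ± 2.16 and 48.1% ± 2.69, and Psmb10 took 34.7% ± 3.89 and 36.6% ± 4.26 (SD, n = 3; exact permutation p = 0.8, 0.9 and 0.7, each 0.9 adjusted). The widest 95% exact binomial interval of a single RNA-seq library was 39.2% to 51.5% (Psmb9, KO replicate 2), which covers counting error only. All 8 dendritic cell and macrophage markers were detected, none at 0, and their summed footprint level was lower in KO (1150 to 1430 CPM) than in WT (1470 to 1820 CPM). In RNA-seq those sums overlapped, with 195 to 312 CPM in KO and 256 to 376 CPM in WT. In footprints 2 of the 8 fell, H2-Ab1 and Flt3, none rose, and Lyz2 was higher in KO by estimate in both assays (log2 fold change 0.15 in RNA-seq and 0.14 in footprints, not called). Their part in the immunoproteasome values was not tested.

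**Figure D3:**
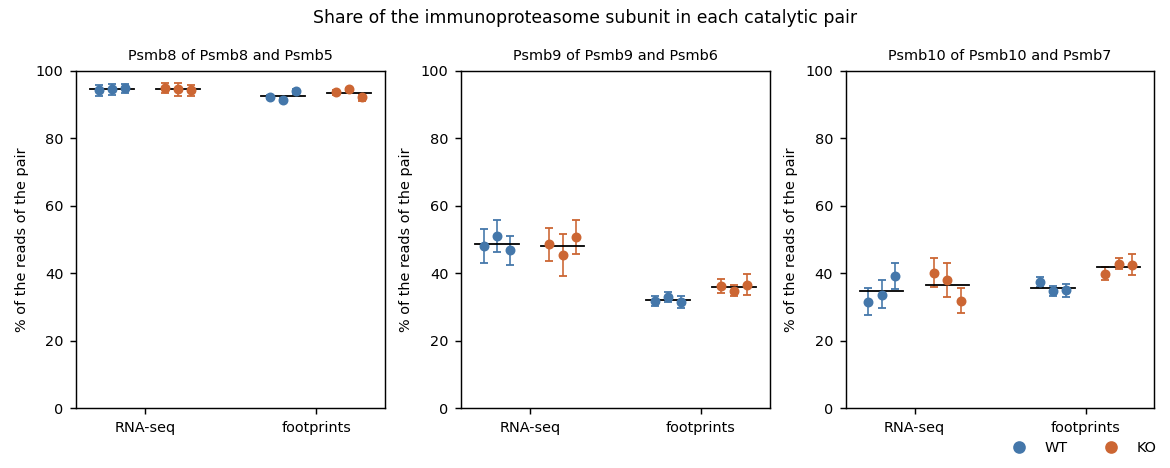
Percent of the reads of each catalytic pair that lay on the immunoproteasome gene, in each RNA-seq and footprint library; points are libraries with 95% exact binomial intervals, blue WT and orange KO, and lines group means. In footprints the KO points for Psmb9 (34.8% to 36.5%) and Psmb10 (39.8% to 42.8%) lie above all WT points, and Psmb8 takes over 90% in every library.

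The promoter of Psmb5, a standard catalytic subunit, is shown as an example of the letters searched for. It is the 250 bases before the RefSeq start on GRCm38.p6, at chr14:54617996-54618245, written 5′ to 3′ on the strand of the gene, the minus strand. Capitals mark the single match to TGACNNNGC, the core letters of the antioxidant response element bound by NRF1 and NRF2.
Psmb5: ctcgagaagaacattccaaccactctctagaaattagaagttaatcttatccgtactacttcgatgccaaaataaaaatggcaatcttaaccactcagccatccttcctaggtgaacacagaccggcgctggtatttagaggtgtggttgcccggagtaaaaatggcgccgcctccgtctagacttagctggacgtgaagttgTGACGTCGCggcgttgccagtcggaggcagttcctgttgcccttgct
A match is a description of these letters and no binding was measured. Of the 47 genes, 40 had 43 promoters in the table, and 14 motifs were searched on both strands in the 250 upstream bases. TGACNNNGC was in 11.6% of the 43, those of Psmb5, Psmb6, Psmc6, Psmd12 and Psmd9, against 10.2% of all 32851 promoters. TATAAA, the TATA box, was in 9.3% (Psmb4, Psmb8, Psmd1 and Psmd6) against 12.4%. GGGCGG, a GC box bound by SP1, was in 51.2% against 32.7%, CCGGAAGT, an ETS site, in 14% against 2.88%, and CCAAT in 32.6% against 33.8%.

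Psmb11 encodes beta5t, the subunit of the thymoproteasome, which is known from cortical thymic epithelial cells rather than thymocytes. It was the least covered of the 47 genes, with 3.82, 5.16 and 2.89 RNA-seq CPM in WT and 4.1, 2.6 and 4.99 CPM in KO. Its footprints gave 8.24, 8.62 and 5.5 CPM in WT and 6.31, 6.04 and 10.1 CPM in KO. The groups overlapped in both assays, and neither fit called it (edgeR FDR 0.941 and 0.691), with a 95% interval in footprints of -0.71 to 0.40. None of the 10 thymic epithelium markers was at 0 in all libraries of an assay. Foxn1 and Dll4 were near the floor in RNA-seq, with means of 0.49 and 0.73 CPM in WT, and did not pass the filter on low counts there. The summed footprint level of the 10 markers was 350 to 452 CPM in WT and 400 to 521 CPM in KO, and Ly75 was the highest of them. Single markers moved in opposite directions. In footprints Ly75 rose (0.42, edgeR FDR 0.0356) and Epcam fell (-0.50, FDR 0.0339). In RNA-seq Ly75 rose (0.49, FDR 0.0449) and Krt5 fell (-1.07, FDR 0.0228). The other markers tested were not called, and with the block 0 were called. Psmb11 was thus detected beside epithelial markers in libraries labelled thymocytes, and what part epithelial cells had in its level was not tested.

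In the regulatory particle, 3 of 17 genes fell in footprints and none rose, so that 17.6% were called, the same share as among all genes. Psmd2, a base subunit that docks ubiquitin receptors, had 208, 199 and 217 footprint CPM in WT and 181, 189 and 172 CPM in KO. All KO libraries were lower (log2 fold change -0.20, SE 0.05, edgeR FDR 0.0394). Psmd13, a lid subunit, had 244, 250 and 246 CPM in WT and 226, 220 and 223 CPM in KO, again without overlap (-0.15, SE 0.03, FDR 0.0259). Psmc5, an ATPase of the ring that unfolds substrates, had 194, 202 and 192 CPM in WT and 179, 171 and 180 CPM in KO. It was lower in every KO library (-0.15, SE 0.04, FDR 0.0399). None of these 3 calls was kept in any of the 6 omissions, with FDRs of 0.0531 to 0.12 for Psmd2, 0.0645 to 0.107 for Psmd13 and 0.0701 to 0.144 for Psmc5.

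By estimate, 13 of the 17 regulatory particle genes had lower footprint values in KO, among them all 8 lid genes (median -0.10, from -0.15 for Psmd13 to -0.01 for Psmd8, 1 called). The lid genes summed to 1546 ± 33.5 CPM in WT against 1466 ± 32.4 CPM in KO (SD, n = 3), and the non-ATPase base genes to 619 ± 9.92 and 580 ± 9.77 CPM. The ATPases were split, with 3 above 0 and 3 below and sums of 1427 ± 18.8 and 1399 ± 15.8 CPM. In RNA-seq 11 of the 17 were below 0, with a median of -0.06 and none called. Psmd14, the deubiquitinase of the lid, had footprint values of 192 ± 12.4 CPM in WT against 185 ± 12.3 CPM in KO (SD, n = 3; FDR 0.607), and Psmd4, a ubiquitin receptor, 199 ± 8.95 and 205 ± 8.96 CPM (FDR 0.618).

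Of the assembly chaperones, Psmg3 and Psmd9 fell in footprints. Psmg3 footprints gave 17.6, 16.5 and 14.8 CPM in WT and 11.1, 12 and 13.7 CPM in KO, all KO libraries being lower. The log2 fold change was -0.45 (SE 0.10, edgeR FDR 0.0253), near that in RNA-seq, and the change beyond RNA was 0.07 (SE 0.15, FDR 0.941). The footprint call was kept in 2 of 6 omissions, those of WT replicate 3 and KO replicate 3 (FDR 0.0292 to 0.0977 over the 6). Psmg4, whose product binds that of Psmg3, had 20.3 ± 2.48 footprint CPM in WT against 22.5 ± 2.94 CPM in KO (SD, n = 3; log2 fold change 0.10, FDR 0.601), and Psmg1 and Psmg2, which form the other core chaperone pair, had 0.04 and -0.05 (FDR 0.658 and 0.58). Psmd9, a chaperone of the base, had 55.8, 48.8 and 51 footprint CPM in WT and 38.3, 44 and 42.2 CPM in KO. It was lower in every KO library (-0.32, SE 0.08, FDR 0.0326), a call kept in 1 of 6 omissions, that of WT replicate 2 (FDR 0.0443 to 0.104 over the 6). In RNA-seq Psmd9 had -0.08 (FDR 0.716), with overlapping groups. Psmd5, another base chaperone, had 0.08 in footprints (FDR 0.159), with every KO library above every WT library.

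Among the activators, which open the core without the regulatory particle, Psme2 and Psme3 fell in footprints. Psme2, the beta subunit of the interferon-inducible PA28 activator, had 54.5, 55.3 and 55.7 footprint CPM in WT and 49.2, 48.3 and 47.9 CPM in KO. The 2 sets of values lie apart (log2 fold change -0.18, SE 0.04, edgeR FDR 0.0167). At 195 to 988 reads per library, the spread in each set is smaller than counting error alone would give. It is therefore no measure of precision. The call was kept in 1 of 6 omissions, that of WT replicate 1 (FDR 0.047 to 0.0781 over the 6). Its partner Psme1, the PA28 alpha subunit, had 162 ± 12.8 CPM in WT against 176 ± 14 CPM in KO (SD, n = 3; 0.12, FDR 0.365), overlapping groups. Psme3, the nuclear PA28 gamma, had 145, 148 and 140 CPM in WT and 130, 127 and 134 CPM in KO. All KO libraries were lower (-0.15, SE 0.04, FDR 0.0402), and the call was kept in none of the 6 omissions (FDR 0.059 to 0.153). Psme4, the PA200 activator, was lower in every KO library without a call (-0.14, FDR 0.0624), and Psmf1, an inhibitor of the core, had 0.11 (FDR 0.355). In RefSeq, Psme1, Psme4 and Psmf1 each overlap another protein-coding gene, as do Psma4, Psmd1 and Psmc3ip, so some of their reads may be shared. Psme2 also has a near-identical copy, Psme2b, to which no read was assigned.

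The change of footprints beyond RNA was tested over all 12 libraries and called in 0 of the 47 genes by edgeR, with 4 at an unadjusted p under 0.05, and in 0.211% of all 11854 genes tested. With the block and with DESeq2 the count was 0 as well. Log2 values ran from -0.24 (Psmd9) to 0.30 (Psmd3), 20 above 0 and 27 below. Psmd3 (SE 0.12, FDR 0.301) was low in KO RNA-seq and level in footprints. Their median size was 0.0819, against 0.137 over the 9197 genes whose log2 CPM averaged 3 or more. For 42 of the 47 the 95% interval lay inside 1.5-fold in either direction, or for 32 with the block, and the 5 others were Psmb5, Psmb8, Psmb10, Psmb11 and Psme1.

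Beside the genotype comparison, the proteasome genes carried many footprints for their RNA in WT thymocytes. Their footprint to RNA ratio, CPM over CPM set against the median of the 11854 genes tested in both assays, had a median of 1.79 on the log2 scale, or 3.45-fold above the median gene. It was above the median gene for 46 of the 47 and above the upper quartile of all genes (0.89) for 40. The ratio compares a gene's footprints with its own RNA, but footprints lie in coding sequence and RNA-seq reads cover whole transcripts, so the coding part of a transcript enters it, and transcript lengths were not used. In addition, 71.5% to 73% of counted RNA-seq reads and 26.9% to 27.7% of footprint reads were in no single gene.

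The 3 highest ratios among genes whose log2 CPM averaged 3 or more in both assays were those of Psmb2, Psma6 and Psme2. Psmb2, a non-catalytic beta subunit, had 178, 191 and 185 footprint CPM beside 24.5, 24.7 and 27.8 RNA-seq CPM in WT, a relative log2 ratio of 3.05 (SE 0.07), higher than in 99.2% of genes or equal to them. Psma6, in the alpha ring, had 2.75 (SE 0.07) and Psme2 2.68 (SE 0.10), which do not differ beyond their errors. Psmb2 had the highest estimate. These SEs come from the spread between libraries, which may not measure how mice differ, and the order of these genes was not tested. The value of Psme2 rests on 9.88 RNA-seq CPM in WT. Reads that it shares with its near-identical copy Psme2b may have gone uncounted, which was not tested.

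The 3 lowest were Psma3 at -0.07 (SE 0.10), Psme4 at 0.11 (SE 0.10) and Psmd11, a lid subunit, at 0.26 (SE 0.06). Psma3 had 21.9, 20.8 and 20.1 footprint CPM and 24.6, 28.5 and 22.7 RNA-seq CPM in WT, so that it alone of the alpha genes had fewer footprint CPM than RNA-seq CPM. The other 6 alpha genes ran from 1.44 (Psma5) to 2.75, in a ring where each subunit is present in equal number. By role, medians were highest for the standard catalytic subunits (2.41), the ATPases (2.19) and the alpha ring (2.12). They were lowest for base chaperones (0.85) and for activators and the inhibitor (0.72). The highest median, over 3 genes, is the value of Psmb5 (SE 0.20), whose RNA-seq log2 CPM averaged 2.88, under the limit of 3. Psmb6 had 2.42 and Psmb7 1.73, so the first place of this role rests on Psmb5. The immunoproteasome subunits had a median of 1.79 in WT and 2.00 in KO. With each genotype set against its own median gene, no ratio of the 47 differed between genotypes by more than 0.29 (Psmd9).

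**Figure D4:**
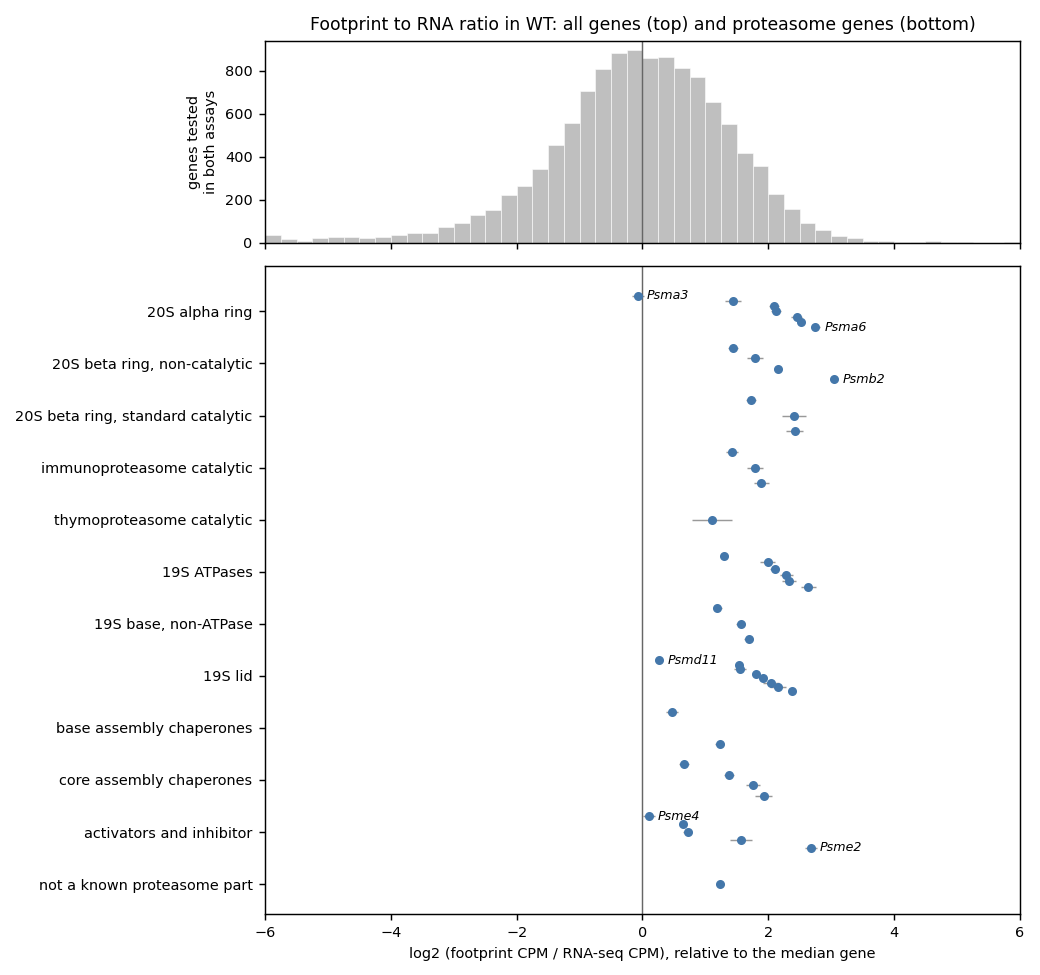
Log2 ratio of footprint CPM to RNA-seq CPM in WT, relative to the median gene, for the 11854 genes tested in both assays (top, genes per bin, with values beyond the axis placed in the end bins) and for each of the 47 proteasome genes by role (bottom, points with bars of 1 SE over libraries). Of the 47 points 46 lie right of 0, from 0.11 (Psme4) to 3.05 (Psmb2), and Psma3 lies at -0.07.

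Genes that work with the proteasome without carrying its symbols were called at about the share of all genes. Of 29 partners and suppliers of ubiquitin, 28 were matched and tested. In RNA-seq 7.14% were called and in footprints 17.9%, beside the 6.91% and 17.6% of all genes. In RNA-seq 2 rose: Uchl5, a deubiquitinase of the regulatory particle (49.6 ± 1.29 CPM in WT against 59.9 ± 1.53 CPM in KO, log2 fold change 0.28, edgeR FDR 0.036), and Ecpas, an adaptor of the proteasome (156 ± 12.7 and 215 ± 16.1 CPM, 0.46, FDR 0.0312; SD, n = 3). In footprints neither Uchl5 (-0.04, edgeR FDR 0.677) nor Ecpas (0.07, FDR 0.545) was called. There 2 other genes rose, the shuttle factors Rad23b (0.15, FDR 0.0253) and Ubqln4 (0.23, FDR 0.0325). Another 3 fell: the shuttle factor Ubqln1 (-0.30, FDR 0.00616), Nploc4, a cofactor of the unfoldase VCP (-0.15, FDR 0.0419), and Zfand2a, a stress-induced proteasome binder (-0.50, FDR 0.0344). None was called in the blocked fit or in translation, and the list's median log2 fold change was 0.01 in RNA-seq and 0.00 in footprints. Nfe2l1, the NRF1 factor that induces proteasome genes, had 111 ± 15.3 and 107 ± 16.7 RNA-seq CPM (SD, n = 3, edgeR FDR 0.828). Its footprints were 82.3 ± 1.99 and 75.8 ± 1.73 CPM (-0.12, FDR 0.0766), so it was called in neither assay. Nor was Nfe2l2, which encodes NRF2, with 0.18 in RNA-seq (FDR 0.544) and 0.05 in footprints (FDR 0.462).

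Of 7 genes of MHC class I loading and its interferon regulators, 1 rose and 1 fell in footprints (28.6%, beside 17.6% of all genes), none was called in RNA-seq (6.91% of all genes), and none with the block. In a list of 7 such shares rest on single genes. Tap2, a subunit of the transporter that takes proteasome-made peptides to MHC class I, had 492, 466 and 510 footprint CPM in WT and 581, 610 and 556 CPM in KO, all KO libraries being higher (0.25 on the log2 scale, SE 0.05, edgeR FDR 0.0205, or 0.188 in the blocked fit). Nlrc5, a transactivator of MHC class I genes, had 31.8, 26.2 and 29.6 CPM in WT and 19.7, 24.1 and 21.4 CPM in KO, all KO libraries being lower (-0.41, SE 0.11, FDR 0.0434, or 0.173 in the blocked fit). The list's median was -0.02.

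The authors' deposited table of the RNA-seq comparison marks 0 of the 47 genes as significant, among 548 of 13301 rows (4.12%). In footprints the authors' deposited table marks 5 of the 47, among 1209 of 11369 rows (10.6%). Those in the authors' deposited table are Psmb1 (log2 fold change 0.31, adjusted p 4.99e-06), Psmb8 (0.26, 0.0105), Psmb10 (0.26, 0.0184), Psma2 (-0.18, 0.0395) and Psmd9 (-0.29, 0.0455). All 5 are among the 12 called here, with the same directions. For Psma3 and Psmg3 the authors' deposited table gives adjusted p-values of 0.06 and 0.0979.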

How the data were processed

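Per the file headers, the authors deposited read counts, whole numbers for each Ensembl gene and library, in a table for each assay with 3 WT and 3 KO libraries, named by them as adjusted without saying what was adjusted. Per the submitters' processing notes, tools were FastQC, Bowtie2 2.5.1, STAR 2.7.10a, HTSeq 2.0.3 and DESeq2 1.40.2, with no role given. The genome build, annotation and strand setting of the counting were not given in the sources used here. Symbols, and the values said to be the authors' own, came from the authors' deposited tables of their comparison, whose 12 columns of per-library values were not used.

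Each assay was fitted over all genes with edgeR 4.0.16 in R 4.3.3 (TMM, filterByExpr with a minimum count of 10, quasi-likelihood test of KO against WT, Benjamini-Hochberg adjustment), and translation by the assay-by-genotype interaction in a fit of 12 libraries. Genes with an FDR under 0.05 were called. Rows that name no gene were left out of library sizes. The fits were tested on simulated data. Groups and replicate numbers came from the titles of the libraries. Named genes were the catalytic subunits, every called gene of the 47 and of 2 partner lists, and the 3 highest and lowest footprint to RNA ratios. Psmd3, Psmd6, Nfe2l1, Nfe2l2 and single members of a role were added after their values were seen. The members and lists were chosen with earlier results of these data known. Alternatives were RLE factors, DESeq2 1.42.0, no filter, the replicate block, an FDR of 0.1, a minimum of 1.5-fold, a joint fit and the omission of each library. Shares used plain reads, because coding lengths were not used here, and the footprint density per codon was not computed for the same reason. Depth ranged from 4069968 to 17859770 reads in genes. The exact binomial intervals of the shares cover counting error only, while the intervals of fold changes come from the edgeR fits.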

Additional observations from a re-analysis of the deposited data

How the results depend on the processing

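In RNA-seq, 1 of the 47 genes was called. RLE factors, no filter and an FDR of 0.1 kept the count at 1. DESeq2, a minimum of 1.5-fold and the replicate block gave 0. The joint fit gave 2 (Psmd3 and Psmg3), and each of the 6 omissions of a library gave 0. Over all genes 943 of 13652 were called, with 938 under RLE factors, 1742 at an FDR of 0.1 and 532 with DESeq2. A minimum of 1.5-fold gave 507, the block 110, no filter 998 of 28504 and the joint fit 1557 of 11854. The omissions called 215 to 323 genes. In footprints the count of 12 became 11 with RLE factors, 14 at an FDR of 0.1 and 4 with DESeq2 (Psmb1, Psmb10, Psmb8 and Psmd9). It was 6 without a filter, 6 in the joint fit, and 0 with a minimum of 1.5-fold or with the replicate block. Over all genes 2376 of 13509 were called, with 2358 under RLE factors, 3523 at an FDR of 0.1 and 1235 with DESeq2. A minimum of 1.5-fold gave 772, the block 408, no filter 2365 of 29866 and the joint fit 1836 of 11854. With DESeq2 and in the joint fit the share of the 47 called was below that of all genes, unlike in the main fit. The omission of 1 library left 1 call (without KO replicate 2) to 5 (without WT replicate 1), the latter beside 1454 of 13369 genes. In translation the count was 0 in every alternative run, the replicate block and the 12 omissions included. The causes of these differences were not tested.

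The replicate numbers do not pair the libraries by the labels, and same-numbered libraries correlated negatively. With the replicate block 12 named footprint changes and 1 in RNA-seq lost their calls, none turned direction, and the differences in immunoproteasome share were by construction the same. The 5 footprint changes not called in either fit were unaffected in direction. Without a filter the footprint change of Psmb5 was -0.00202 instead of 0.00343. Among values never called, the omission of single libraries turned the sign of Psmb10 (-0.0752 to 0.14), Psmb11 (-0.18 to 0.29), Psmb5 (-0.116 to 0.0371) and Psmb8 (-0.114 to 0.0851) in RNA-seq, of Psmb5 in footprints (-0.15 to 0.10), and of Psmb11 (-0.451 to 0.0169), Psmb5 (-0.0931 to 0.147), Psmb6 (-0.13 to 0.10) and Psmb7 (-0.0921 to 0.048) in translation. Under omission the footprint shares of Psmb10 and Psmb9 differed by 5.51 to 7.01 and 3.48 to 4.34 points and that of Psmb8 by 0.238 to 1.59. In RNA-seq the difference ran from 0.0902 to 4.21 points for Psmb10, and changed sign for Psmb9 (-1.72 to 0.947) and Psmb8 (-0.195 to 0.133). Shares per coding length and the footprint density along the complex were not run. Reads were fewest for Psmb11 in both assays, and in RNA-seq also low for Psmg4 and Psmb5.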

Other observations

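Rows named after proteasome genes but outside the rule were also counted. Psmd10, the gankyrin chaperone of the base, is not listed in the authors' deposited tables. It had 747 footprint reads over 6 libraries, 9.31 ± 0.982 CPM in WT against 10.4 ± 1.17 CPM in KO (SD, n = 3; edgeR FDR 0.273), but 41 reads over the 6 RNA-seq libraries, with 0 to 11 in each. Psma8, the alpha subunit of the germ cell proteasome, had 12 RNA-seq and 29 footprint reads over 6 libraries each. Psme2b had 0 reads in both assays. The rows of Psmb5-ps, Psmb6-ps, Psmb6-ps2 and Psmb7-ps2 held at most 1 RNA-seq read and 10 footprint reads in a library.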
